A study of Mus musculus with 24 samples.

Results

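The comparison described here was made on CD4+FOXP3+ regulatory T (Treg) cells sorted from mouse tumours, after an antibody to PD-1 or after an isotype control antibody. All columns of the count table whose names carry the Treg label and either of those antibodies were taken, which gave 8 of the 24 libraries in the series, 4 per antibody. Mice of both groups carried tumours of B16F10-OVA, a melanoma line made to express ovalbumin, and were given 200 micrograms of antibody, with tumours taken after 1 day. The other 16 libraries were 4 Treg libraries after an antibody to JAML and 12 of CD8+ T cells from the same 3 treatments. Mouse strain, age, the Foxp3 allele that allowed the sort and the antibody clones are not stated in the labels. Whether the 4 libraries of an antibody stem from different animals is also unstated, so p-values rest on library-to-library spread that may in part be technical. Each library came from fewer than 400 cells.

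Treg cells restrain other lymphocytes through surface receptors such as CTLA-4, through capture of interleukin-2 by CD25, and through cytokines and granule proteins, and the transcription factor FOXP3 holds their identity. PD-1 is an inhibitory receptor that recruits a phosphatase to dampen T-cell receptor and CD28 signals. Both Treg cells and CD8+ T cells of tumours can carry PD-1, so an antibody that blocks it can act on both.

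Treg totals lay between 11920543 and 22556460 counts per library. Anti-PD-1 libraries held 14720 ± 500.5 genes with a count (SD, n = 4) and isotype libraries 13264 ± 763 (exact two-sided permutation p = 0.0571, 0.143 after adjustment over 5 library measures; 4 against 4 libraries can reach 0.0286). On the first principal component of log2 CPM (counts per library total, put on one scale), which held 21.1% of the variance among the 12 Treg libraries, isotype library 4 scored 36.5, among the anti-PD-1 libraries (11.8 to 85.6), and isotype library 3 scored -154, farthest from them. Results are therefore also given without these libraries where a call changes. Pearson's r of log2 CPM across genes was 0.767 to 0.801 between isotype libraries, 0.816 to 0.893 between anti-PD-1 libraries and 0.760 to 0.852 across the groups.

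The sort matched its label in Foxp3, Cd4 and Cd8a. Foxp3 stood at 62.2, 65.7, 59 and 106 CPM in isotype libraries 1 to 4 and at 41.8, 114, 96.7 and 78.5 CPM in anti-PD-1 libraries 1 to 4, and the ranges overlapped. Cd4 was at 209.9, 264, 302 and 368 CPM after isotype and 259, 467, 342 and 201 CPM after anti-PD-1. Cd8a had no count in any isotype library and at most 0.0785 CPM after anti-PD-1. A list of 10 T-cell and CD4 markers, Foxp3 and Cd4 among them, had 6 negative log2 fold changes. By edgeR's test, described below, 5 were lower and 1 higher at an unadjusted p under 0.05, beside 5.8% and 8.34% of all genes. Their summed level was 9350 to 12879 CPM after isotype and 7228 to 9936 CPM after anti-PD-1. Pdcd1, the gene of PD-1 itself, was at 433, 665, 671 and 986 CPM after isotype and 640.4, 898, 1106 and 754 CPM after anti-PD-1, with overlapping ranges and a log2 fold change of 0.30 ± 0.30 (SE). This level checks the population and not the treatment. Per transcript length, in the authors' TPM, Pdcd1 reached 816 ± 368 after isotype and 1176 ± 421 after anti-PD-1 (SD, n = 4), beside 928 ± 242 and 999 ± 253 for Ctla4, 84.2 ± 25.9 and 169 ± 41.0 for Il2ra, and 36.6 ± 16 and 49.1 ± 22.8 for Foxp3.

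Of 12981 genes tested by edgeR's quasi-likelihood test with Benjamini-Hochberg adjustment, 3 passed an adjusted p of 0.05. Nup107 and Kif2c were higher after anti-PD-1 (0.0154% of genes tested) and Ypel3 was lower (0.0077%). Every anti-PD-1 library lay outside the isotype range for each of the 3 genes, and all 3 were also called by DESeq2. These genes, and those next in order described below, were picked by p in these same libraries. Neither the lack of overlap nor a second test on the same counts therefore adds support. Limma voom called Nup107 and Ypel3 but not Kif2c (adjusted p = 0.0626). Nup107 encodes a scaffold protein of the nuclear pore complex, Kif2c the kinesin MCAK, which dismantles microtubule ends during chromosome segregation, and Ypel3 a small zinc-binding protein linked to growth arrest. The stretches of 250 bases upstream of their RefSeq transcription starts (GRCm38.p6, the patched form of mm10) are printed because these 3 promoters belong to the only genes that edgeR called.
Nup107 (chr10:117792706-117792955, minus strand): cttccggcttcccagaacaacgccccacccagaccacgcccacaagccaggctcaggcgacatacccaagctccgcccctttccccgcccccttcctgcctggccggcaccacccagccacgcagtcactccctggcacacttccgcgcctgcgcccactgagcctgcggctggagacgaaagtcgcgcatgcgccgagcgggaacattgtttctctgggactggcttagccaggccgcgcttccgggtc
Kif2c (chr4:117178773-117179022, minus strand): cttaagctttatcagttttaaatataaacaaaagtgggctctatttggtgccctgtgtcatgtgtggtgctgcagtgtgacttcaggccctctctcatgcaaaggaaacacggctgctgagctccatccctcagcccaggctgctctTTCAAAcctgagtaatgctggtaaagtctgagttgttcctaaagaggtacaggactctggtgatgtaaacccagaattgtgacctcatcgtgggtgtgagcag
Ypel3 (chr7:126776713-126776962, plus strand): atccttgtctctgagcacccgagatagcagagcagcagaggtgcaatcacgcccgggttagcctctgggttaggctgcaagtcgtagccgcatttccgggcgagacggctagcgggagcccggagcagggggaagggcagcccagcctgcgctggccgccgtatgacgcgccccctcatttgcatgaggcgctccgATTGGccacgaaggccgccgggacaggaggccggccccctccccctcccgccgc
The capitals mark matches to the motifs searched on both strands, which were the CHR element TTTGAA of cell-cycle genes, the CCAAT box CCAAT, the E-box CACGTG and the FOXO motif GTAAACA. The Kif2c stretch holds the CHR letters on the strand opposite to the printed one, 103 to 98 bases upstream of the start. Of 32851 promoter stretches of this length 16% hold them. The Ypel3 stretch holds the CCAAT letters on the strand opposite to the printed one, 54 to 50 bases upstream, as 33.8% of the stretches do. The Nup107 stretch holds none of the 4 motifs. A match describes letters and is no evidence of binding. The RefSeq starts of Kif2c and Ypel3 lie inside the gene spans of GENCODE M21. The Kif2c stretch lies wholly inside its span, and the Ypel3 stretch runs a few bases into its own.

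Nup107 (ENSMUSG00000052798.13, chr10:117750621-117792705 in mm10) was at 23.3, 31.3, 24.1 and 22.2 CPM in isotype libraries 1 to 4 and at 70.4, 118, 124 and 94 CPM after anti-PD-1. The lowest anti-PD-1 value was above the highest isotype value, and the fold was 4.02 (log2 fold change 2.01 ± 0.25, SE; edgeR adjusted p = 0.0151, DESeq2 1.43e-10). The anti-JAML libraries, at 60, 45.9, 37.1 and 52.4 CPM, lay between. Kif2c (ENSMUSG00000028678.13, chr4:117159639-117182639) was at 10.1, 6.41, 5.02 and 6.95 CPM after isotype and at 36.4, 72.8, 72.9 and 48.4 CPM after anti-PD-1. All 4 anti-PD-1 libraries were again higher, by 8.08-fold (log2 3.01 ± 0.41; edgeR adjusted p = 0.0277), while anti-JAML libraries were at 47.7, 15, 34.5 and 34.5 CPM. Ypel3 (ENSMUSG00000042675.15, chr7:126776955-126780514) was at 536, 719.7, 585 and 456 CPM after isotype and at 123, 112, 115 and 198 CPM after anti-PD-1. It was 4.2-fold lower, with every anti-PD-1 library below every isotype library (log2 -2.07 ± 0.24; edgeR adjusted p = 0.0151), and its anti-JAML values of 298, 425, 368 and 538 CPM lay above the anti-PD-1 ones. The calls depended on single libraries. Without isotype library 3, or without anti-PD-1 library 2 or 3, none of the 3 passed, and without isotype library 4 the same test called 81 genes higher and 41 lower, these 3 among them. Without anti-PD-1 library 1 it called 12 genes higher and 11 lower, and without isotype library 1 or anti-PD-1 library 4 only Ypel3 of the 3 passed. Without isotype library 2 or anti-JAML library 3 Kif2c did not pass, and a fit of the 8 libraries alone called no gene.

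**Figure D1:**
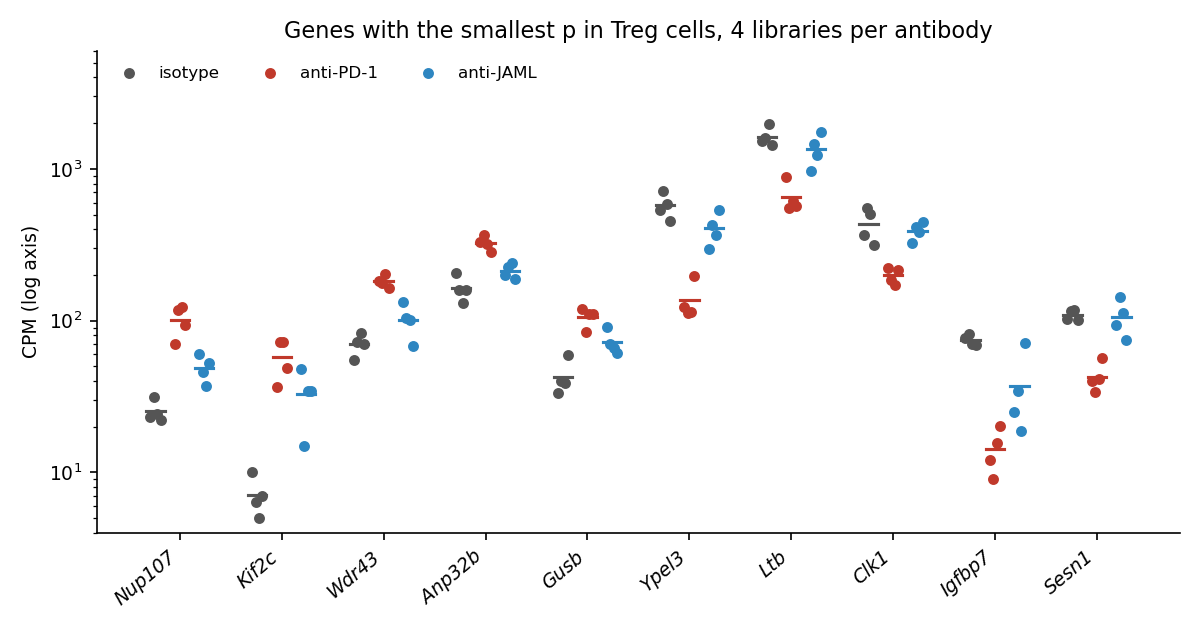
CPM on a log axis for the 5 highest-ranked genes by p on each side, in 4 Treg libraries per antibody (dots) with the group mean (bar). The isotype and anti-PD-1 dots do not overlap for any of the 10 genes, which were picked by p in these same libraries. Nup107, Kif2c and Ypel3 are those past the adjusted threshold.

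The choice of test set how many genes were called. DESeq2 on the same genes called 399 higher (3.07%) and 224 lower (1.73%), and limma voom called 3 in each direction (0.0231% each). At an unadjusted p under 0.05, edgeR counted 1082 genes higher (8.34%) and 753 lower (5.8%), where 649 in all would pass by chance if no gene differed. All 4 anti-PD-1 libraries lay above all isotype libraries for 651 genes (5.02%) and below them for 425 (3.27%). The list counts below are to be read beside these shares of all genes. The median log2 fold change over all genes tested was 0.04, and 52.4% of genes had a positive value. Genes named below did not pass edgeR's adjusted threshold unless that is stated, so their values are given without a call. Those given with values did pass an adjusted p of 0.05 in DESeq2, whether or not that p is printed, except Txnip, Ikzf2, Ctla4, Tnfrsf18, Zap70, Ptpn6, Cd274, Pdcd1lg2, Jak3, Il2rg, Dusp2, Irf7, Tap1, Bax, Itgam, Spp1, Jaml and Igkc, whose DESeq2 adjusted p was 0.0501 to 0.804. Further exceptions were Cd8b1, Nkg7, Cct6b, Foxp3, Cd4 and Pdcd1, which DESeq2 did not call. Genes given only in TPM, or only as at or near 0, are not meant here.

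The genes next in order by p did not pass edgeR's adjusted threshold. Wdr43, a factor of small ribosomal subunit assembly, was at 55.4, 72.2, 83.5 and 69.8 CPM after isotype and 182, 176, 204 and 165 CPM after anti-PD-1 (log2 1.37 ± 0.21; adjusted p = 0.0705 by edgeR and 0.0458 by limma voom). Anp32b, a histone chaperone, was at 205, 159, 130.1 and 160.0 against 327, 364, 322 and 281 CPM (log2 0.99 ± 0.17), and Gusb, the lysosomal enzyme beta-glucuronidase, at 33.4, 40, 38.6 and 59.4 against 119.7, 84.7, 111 and 109.8 CPM (log2 1.31 ± 0.23). For all 3 the groups did not overlap. On the lower side, Ltb, which encodes the TNF-family ligand lymphotoxin beta, was at 1519, 1591, 1963 and 1428 CPM after isotype and 885, 553, 618 and 565 CPM after anti-PD-1 (log2 -1.31 ± 0.21; adjusted p = 0.0705 by edgeR and 0.0458 by limma voom). Clk1, a kinase of splicing factors, was at 367, 553, 504 and 317 against 221, 185, 173 and 215 CPM. Igfbp7, a secreted binding protein, was at 76.6, 81.7, 70 and 69.5 against 12.2, 9.07, 15.7 and 20.3 CPM (log2 -2.38 ± 0.41). Sesn1, a stress-induced inhibitor of mTORC1, was at 102, 115, 117 and 102 against 39.8, 33.9, 41 and 56.3 CPM (log2 -1.35 ± 0.23). None of these 4 had overlapping groups either, and all had an edgeR adjusted p of 0.0705. Limma voom further called a pair of sparse genes, named after their values were seen. Slfn4 had no count in any isotype library and 6.36, 25, 2.15 and 17 CPM after anti-PD-1, at least 295-fold higher against a floor of 3 counts over the isotype group, and Ropn1l went the other way, from 5.64, 4.43, 3.9 and 4.47 CPM to no count in any anti-PD-1 library, at least 88.3-fold lower against the same floor.

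Cell-cycle genes had higher values after anti-PD-1 throughout their lists. Of 24 mitosis genes, all tested, 24 had a positive log2 fold change, with a median of 1.03 beside 0.04 for all genes. At an unadjusted p under 0.05, 18 of them were higher and none lower, 13 were called higher by DESeq2, 12 had no overlap between the groups, and none passed edgeR's adjusted threshold. Among all genes 8.34% were higher at that p and 3.07% by DESeq2, and 5.02% lay above the isotype range. Tpx2, which activates Aurora kinase A on the spindle, was at 52, 23.8, 24.8 and 42.3 CPM after isotype and 85.1, 128, 126 and 98.9 CPM after anti-PD-1 (log2 1.61 ± 0.30; edgeR adjusted p = 0.0705, DESeq2 8.75e-05). Top2a, the topoisomerase of dividing cells, was at 155, 101, 121 and 159 against 200.1, 350.5, 396 and 312 CPM (log2 1.24 ± 0.28). Ccnb1, the mitotic cyclin B1, was at 150.4, 189.9, 244 and 151 against 433, 305, 361 and 302 CPM. Cdca8, a subunit of the chromosomal passenger complex, was at 136, 65.7, 66 and 122 against 201, 161, 198 and 202 CPM. The lowest anti-PD-1 value exceeded the highest isotype value for each of these 4 genes. Here and in the lists below, members were named for their small p in this same comparison, so their lack of overlap adds no support. The 24 DNA replication genes also all had positive values, with a median of 1.10, and 10 were higher at an unadjusted p under 0.05 and 9 by DESeq2. Rrm1, the large subunit of ribonucleotide reductase, was at 139, 157, 112 and 219 CPM after isotype and 242, 459.7, 495 and 329 CPM after anti-PD-1, without overlap. Mcm4 and Mcm6, of the replicative helicase, had log2 fold changes of 0.89 ± 0.26 and 1.06 ± 0.32. The highest isotype and lowest anti-PD-1 values were 237 and 265 CPM for Mcm4 and 346 and 333 CPM for Mcm6, so that only Mcm6 overlapped.

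Isotype libraries 1 and 4 had the highest levels of both cell-cycle lists among the isotype libraries, and the spread there was wider than after anti-PD-1. The mean log2 CPM of the mitosis genes was 6.17 ± 0.42 after isotype and 7.25 ± 0.11 after anti-PD-1 (SD, n = 4), and that of the replication genes 5.12 ± 0.77 and 6.59 ± 0.25, without overlap for either list. Leaving out each of the 8 libraries in turn gave medians of 0.93 to 1.13 for mitosis and 0.91 to 1.27 for replication. The number of genes detected per library moved with these lists, and with it as a covariate the medians were 0.60 and 0.64 and the counts at an unadjusted p under 0.05 fell to 6 and 2. The shares of all genes come from the fit without this covariate, so the counts of 6 and 2 have no like share beside them. The part of genes detected in the result was not tested. Nucleoporins, a family taken by symbol after Nup107 was seen, had 17 positive values of 20, a median of 0.76 and 9 higher at an unadjusted p under 0.05 (8.34% of all genes were), with Nup107 the 1 member past the adjusted threshold. With the covariate the nucleoporin median was 0.40 and 1 gene was higher at that p, and without isotype library 3 the count was 5. Kif2c was likewise the 1 of 27 kinesins past it, and that family's median was 0.23. Ttl, which encodes tubulin tyrosine ligase, had no count in any isotype Treg library and 7.38, 6.81, 1.11 and 3.07 CPM after anti-PD-1, at least 103-fold higher against the same floor of 3 counts, but 0.506, 10.8, 4.29 and 7 CPM after anti-JAML.

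**Figure D2:**
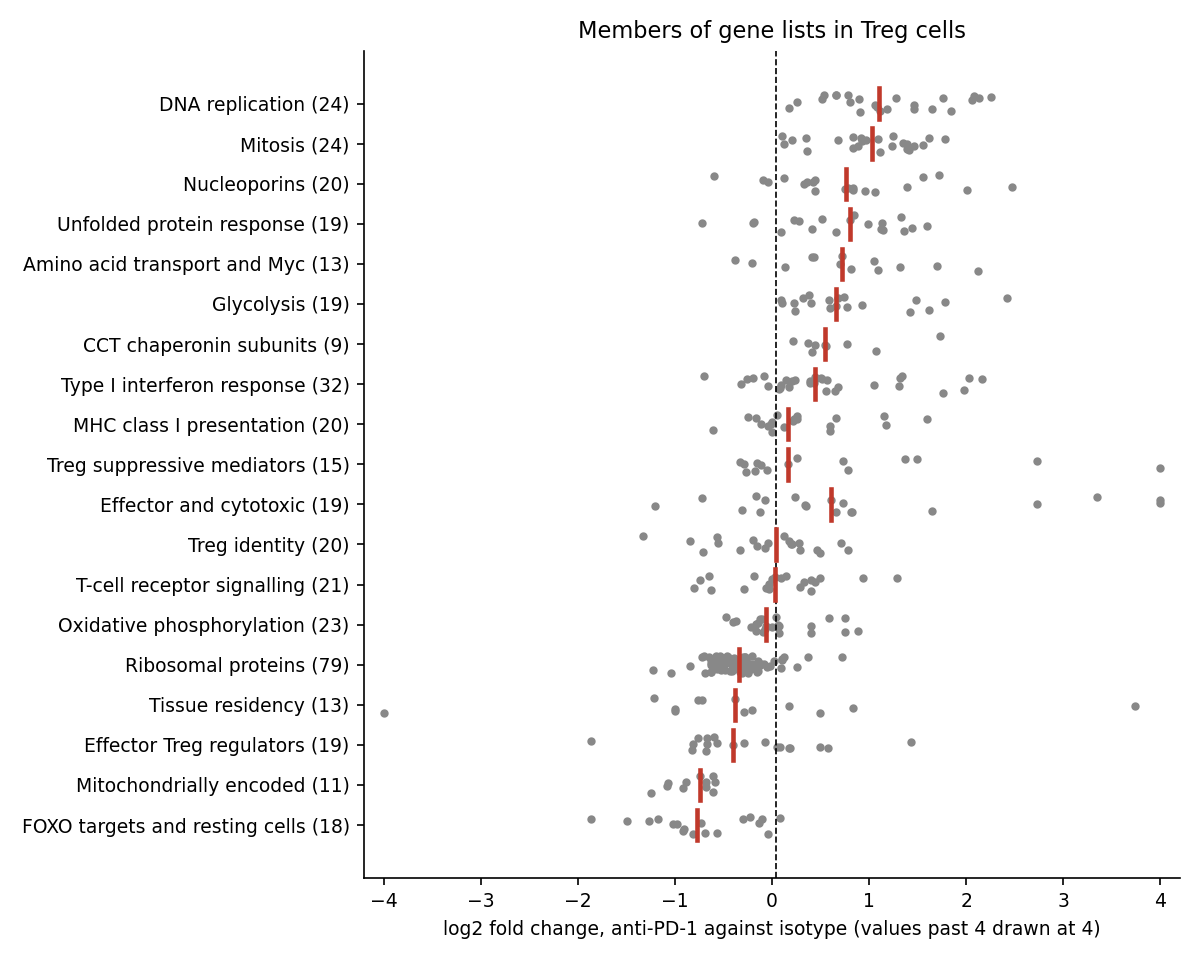
Log2 fold change of anti-PD-1 against isotype for each tested member (dots, jittered vertically) of 19 gene lists and families, with the number tested in brackets, the list median (red bar) and the median of all genes (dashed line). All dots of the mitosis, DNA replication and glycolysis lists are above 0, and 17 of 18 dots of the FOXO and resting-cell list are below 0.

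Genes of cell growth had higher values as well. The list of Myc, amino acid transporters and nucleolar genes had 11 positive values of 13 tested, with 2 further members too low to test, a median of 0.72, and 7 higher at an unadjusted p under 0.05, or 4 with a covariate for genes detected. Without that covariate 8.34% of all genes were higher. Myc, the growth transcription factor, was at 93.8, 86.8, 84.8 and 118 CPM after isotype and 178, 179, 166 and 149 CPM after anti-PD-1, without overlap (log2 0.81 ± 0.18; adjusted p = 0.094 by edgeR and 0.00155 by DESeq2). Ncl, the nucleolar protein nucleolin, was at 291, 204, 279 and 300.3 against 482, 701, 549 and 563 CPM (log2 1.09 ± 0.21). Nop56, of the ribosomal RNA methylation complex, was at 154, 104, 141 and 181 against 314, 256, 309 and 325 CPM (log2 1.05 ± 0.22). Slc7a1, an arginine transporter, was at 2.76, 2.77, 13.4 and 8.6 against 35.1, 22.4, 28.7 and 34 CPM (log2 2.12 ± 0.56). These 3 did not overlap either. Slc16a1, the lactate and pyruvate transporter MCT1, which was named after its values were seen, was at 18, 14.6, 9.11 and 18.7 CPM after isotype and 81.5, 75.4, 71.8 and 30.1 CPM after anti-PD-1 (log2 2.10 ± 0.39).

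All 19 glycolysis genes had positive values, with a median of 0.66, and 8 were higher at an unadjusted p under 0.05 and 7 by DESeq2. With a covariate for genes detected 17 of the 19 were positive, with a median of 0.46, and 3 were higher at that p. The shares of all genes without the covariate were 8.34% higher at that p and 3.07% by DESeq2. Eno1, the enzyme enolase, was at 2216, 1535, 2027 and 2321 CPM after isotype and 3067, 3048, 4245 and 3429 CPM after anti-PD-1 (log2 0.77 ± 0.17; DESeq2 adjusted p = 0.0005), without overlap. Tpi1 was at 1175, 747, 948 and 1184 against 1814, 1439.6, 1654 and 1565 CPM. Ldha, which makes lactate, was at 3548, 2548, 2579.8 and 3334 against 4322, 4818, 6008 and 3811 CPM. The groups did not overlap for either enzyme. Pkm, the last kinase of the pathway, was at 801, 618, 772 and 1788 against 1492, 3506, 4482 and 2733 CPM, where isotype library 4 was above anti-PD-1 library 1. Respiratory chain genes encoded in the nucleus had 10 positive and 13 negative values and a median of -0.06. Atp5b, a subunit of ATP synthase, differed from most of them, at 995, 741, 698 and 1246 CPM after isotype and 1651, 1458, 1498 and 1585 CPM after anti-PD-1 (log2 0.75 ± 0.19). The 11 genes encoded in mitochondria all had negative values, with a median of -0.74, and 71 of 79 ribosomal protein genes did, with a median of -0.34. Both signs turned with a covariate for genes detected, to medians of 0.28 and 0.16. Single libraries also moved these medians. Without anti-PD-1 library 1 the mitochondrial median was -1.16 and the ribosomal one -0.66. In that fit 54 ribosomal genes were lower at an unadjusted p under 0.05, with no share of all genes given for it. With all libraries 7 of the 79 were lower, beside 5.8% of all genes. The ribosomal median was -0.18 without anti-PD-1 library 3 and -0.19 without isotype library 1.

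Chaperones of the endoplasmic reticulum, targets of the unfolded protein response, showed a median of 0.80 over 19 genes, with 12 higher and 1 lower at an unadjusted p under 0.05, 7 higher by DESeq2 and 10 without overlap. With a covariate for genes detected the median was 0.51 and 4 were higher at that p. Without it, 8.34% of all genes were higher at that p, 3.07% by DESeq2, and 5.02% lay above the isotype range. Canx, a lectin chaperone, was at 117, 135, 101 and 138 CPM after isotype and 199, 313, 349 and 227 CPM after anti-PD-1 (log2 1.15 ± 0.25). Pdia4, a disulphide isomerase, was at 141, 115, 73.9 and 209 against 236, 389, 445 and 282 CPM. Sdf2l1 was at 65.1, 44.7, 35.6 and 69.8 against 120.3, 109.6, 144 and 97.7 CPM, and Hspa5, the chaperone BiP, at 395, 318, 382 and 667 against 702, 1005, 1162 and 956 CPM. Their log2 fold changes were 1.32 ± 0.30, 1.13 ± 0.26 and 1.12 ± 0.27, and none of the 4 overlapped. Chaperones of other compartments included Hspd1, the mitochondrial HSP60, at 190.1, 98.2, 145 and 164 against 299, 306, 280.1 and 294 CPM, and Hsp90ab1, a cytosolic HSP90, at 1021, 843, 754 and 1151 against 1395, 2217, 1902 and 2088 CPM, both without overlap. The heat shock list they belong to had a median of 0.26 over 13 genes. All 9 genes taken by symbol for the CCT chaperonin, which folds tubulin and actin, had positive values, though that of Cct6b was 1.73 ± 2.26 (SE). Cct7 was at 430.1, 305, 330.1 and 334 CPM after isotype and 622, 603, 608 and 564 CPM after anti-PD-1 (log2 0.78 ± 0.14). That family was taken after Cct7 was seen.

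**Figure D3:**
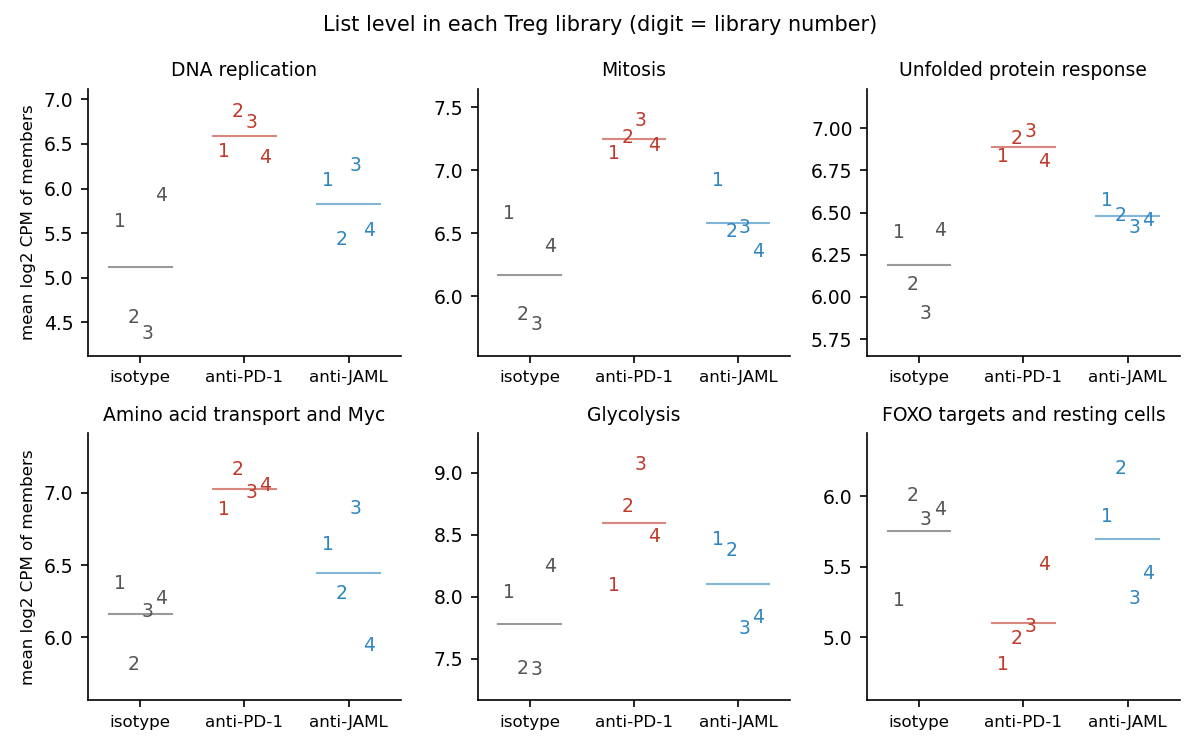
Mean log2 CPM of the members of 6 gene lists in each Treg library, with the library number as the symbol and a line at the group mean. The anti-PD-1 libraries lie above all isotype libraries for DNA replication, mitosis, the unfolded protein response and the Myc list, and the groups overlap for glycolysis and the FOXO list.

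Genes of resting and recirculating T cells, many of them targets of FOXO factors, had lower values. Of 18 genes, all tested, 17 had a negative log2 fold change, the median was -0.78, 7 were lower at an unadjusted p under 0.05, 3 by DESeq2, and 6 did not overlap. For these last 3 counts the shares of all genes were 5.8%, 1.73% and 3.27%. Il7r, the interleukin-7 receptor chain, was at 144, 265, 141 and 143 CPM after isotype and 82.6, 45.3, 81.2 and 77.9 CPM after anti-PD-1 (log2 -1.27 ± 0.29; adjusted p = 0.0968 by edgeR and 0.00226 by DESeq2). Btg1, an antiproliferative factor, was at 673, 1083, 995 and 747 against 321, 421, 452 and 587 CPM. S1pr1, the receptor for exit from tissue, was at 169, 271, 209.7 and 126 against 72.4, 84.3, 91.7 and 96.3 CPM, and Txnip, an inhibitor of glucose uptake, at 115, 119, 243 and 151 against 71.4, 103, 72.2 and 84.9 CPM. None of these 4 overlapped. The median was -0.91 to -0.68 when each of the 8 libraries was left out and -0.87 with a covariate for genes detected. Klf13 and Pdcd4 were named after their values were seen. Klf13, a Krüppel-like factor, was at 304, 287, 313 and 325 CPM after isotype and 197, 158, 119 and 135 CPM after anti-PD-1, and Pdcd4, an inhibitor of translation initiation, at 194, 258, 232 and 176 against 113, 89.3, 74 and 121 CPM. Abcg1, which exports cholesterol, was at 91.4, 142, 81.3 and 70.6 against 26.5, 26, 18 and 50 CPM (log2 -1.68 ± 0.33; DESeq2 adjusted p = 0.000397).

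The Treg identity list had 10 positive and 10 negative values and a median of 0.04. Il2ra, which encodes CD25, had the smallest p among its higher members, at 144, 279, 204 and 229.9 CPM after isotype and 346, 303, 429 and 391 CPM after anti-PD-1, without overlap (log2 0.78 ± 0.22; adjusted p = 0.153 by edgeR and 0.0233 by DESeq2). Icos, a costimulatory receptor, was at 595, 1074, 900.4 and 708 against 425, 445, 351 and 602 CPM, where anti-PD-1 library 4 was just above isotype library 1 (log2 -0.85 ± 0.22). Izumo1r, the folate receptor FR4, had a log2 fold change of -0.71 ± 0.21, and Ikzf2, which encodes Helios, one of -0.57 ± 0.19. Ctla4 was at 830.3, 1384, 969 and 742 against 799, 958, 998 and 773 CPM and overlapped. Of 19 regulators of effector Treg cells tested, 12 had negative values, with a median of -0.40. At an unadjusted p under 0.05, 5 were lower, beside 5.8% of all genes. Tigit, an inhibitory receptor of tumour Treg cells, was at 1728, 2465, 2343 and 1953 CPM after isotype and 1398, 1367, 1396 and 1158 CPM after anti-PD-1, without overlap (log2 -0.67 ± 0.15; DESeq2 adjusted p = 0.00133). The transcription factor gene Maf had a log2 fold change of -0.68 ± 0.21.

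Among suppressive mediators 8 of 15 tested genes had positive values, with a median of 0.17 and 6 higher at an unadjusted p under 0.05, beside 8.34% of all genes. The median was 0.34 without isotype library 2, where 12 of 15 were positive, 0.04 without isotype library 4, and 0.30 with a covariate for genes detected. The higher members included granule proteins. Gzmb was at 566, 689.7, 658 and 455 CPM after isotype and 844, 806, 1068 and 1216 CPM after anti-PD-1 (log2 0.73 ± 0.20; DESeq2 adjusted p = 0.0137), and Prf1, the pore-forming protein perforin, at 54.8, 17.7, 15.6 and 37.6 against 77.2, 195, 421 and 137 CPM (log2 2.72 ± 0.71; DESeq2 0.00116). The groups did not overlap for either gene. Markers of other cytotoxic cells were partly higher beside them. The mean log2 CPM of the 5 CD8 T-cell markers tested, of 7, was 3.14 to 4.63 after isotype and 4.72 to 6.22 after anti-PD-1, without overlap. Of these 5, 3 had positive and 2 negative log2 fold changes, with a median of 0.03. No member differed at an unadjusted p under 0.05, was called by DESeq2 or was itself without overlap. The summed level of all 7 markers overlapped (2272 to 3684 and 2202 to 4300 CPM), but it mostly reflects 1 gene, Nkg7. In mean TPM Nkg7 was at 7293 after isotype and 8048 after anti-PD-1, beside 49.2 and 40.5 for Cd8b1. Of the defining pair Cd8a was at or near 0 and Cd8b1 had a mean of 33.5 ± 18.4 CPM after isotype and 24.3 ± 12.1 CPM after anti-PD-1 (SD, n = 4). The mean log2 CPM of the 4 NK cell markers tested, of 12, averaged 0.90 ± 2.22 after isotype and 3.53 ± 1.94 after anti-PD-1 (SD, n = 4), with overlap. The part of such cells in the granule genes was not tested. Lag3, an inhibitory receptor that binds MHC class II, was at 152, 76.5, 166 and 199.6 against 156, 517, 746 and 256 CPM, with anti-PD-1 libraries 2 and 3 far above the others and library 1 inside the isotype range. Tbx21, the T-bet factor of the type 1 programme, was at 35, 35.2, 32.2 and 31.6 against 44.2, 164, 149 and 62.5 CPM (log2 1.65 ± 0.41), and Ccl5, a chemokine of effector cells, was at 3224, 4409, 3785 and 2364 against 2528, 1296, 698 and 1444 CPM (log2 -1.21 ± 0.37), where library 1 overlapped. Cd27 and Cd226, costimulatory receptors, had log2 fold changes of -0.71 ± 0.16 and -0.91 ± 0.25, and Tnfrsf18, which encodes GITR, one of -0.56 ± 0.20.

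Signalling genes had values of both signs. The T-cell receptor list had a median of 0.03 over 21 genes, and its CD3 chains had lower values, at 984, 1232, 1256 and 963 against 801, 612, 579.8 and 667 CPM for Cd3e (log2 -0.74 ± 0.16; DESeq2 adjusted p = 0.000467), with log2 -0.65 ± 0.20 for Cd3d and -0.81 ± 0.25 for Cd3g. Zap70, the kinase recruited by them, was at 170.4, 226, 232 and 275 against 172, 547, 618 and 390.2 CPM (log2 0.93 ± 0.35), with anti-PD-1 library 1 inside the isotype range. In the PD-1 pathway list (median 0.23, 15 genes) the phosphatase gene Ptpn6 had a log2 fold change of 0.61 ± 0.24, the kinase gene Pik3cd one of 1.04 ± 0.29, the adaptor gene Sh2d1a one of -1.12 ± 0.30, and the ligand genes Cd274 and Pdcd1lg2 0.47 ± 0.38 and -0.55 ± 0.26. Jak3, which signals below interleukin-2 receptors, was at 4.79, 16.9, 59.9 and 92.8 against 39.6, 353, 409 and 177 CPM, and the shared receptor chain Il2rg had a log2 fold change of -0.56 ± 0.19. Nfkb2 had a value of 1.62 ± 0.55 and the MAP kinase phosphatase gene Dusp2 one of -0.99 ± 0.37.

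Of 25 trafficking receptor genes tested, 14 had negative values, and 4 were lower and 1 higher at an unadjusted p under 0.05. Of 13 tissue residency genes tested, 9 had negative values and 3 were lower at that p. Among all genes tested, 5.8% were lower and 8.34% higher at that p. Cxcr3, a chemokine receptor of type 1 cells, was at 783, 899, 718 and 563 CPM after isotype and 443, 417, 358 and 402 CPM after anti-PD-1 (log2 -0.87 ± 0.16; adjusted p = 0.0705 by edgeR and 4.59e-06 by DESeq2), and Cxcr6 at 1593, 1719, 2017 and 1262 against 1148, 788, 1082 and 875 CPM. Rgs1, which dampens chemokine receptors, was at 1693, 1875, 1640.2 and 1564 against 1036, 760.2, 591 and 1006 CPM, and Rgs2 at 477, 765, 610.2 and 493 against 241, 201, 229.6 and 338 CPM. None of these 4 overlapped.

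Interferon-stimulated genes had mostly positive values. Of 32 type I interferon genes 26 had positive values, with a median of 0.44. At an unadjusted p under 0.05, 7 were higher and 1 lower, beside 8.34% and 5.8% of all genes. With a covariate for genes detected the median was 0.19 and 2 were higher at that p, and without anti-PD-1 library 4 the count was 4. Bst2, the antiviral protein tetherin, was at 65.7, 70.9, 71.8 and 76.6 CPM after isotype and 124, 257, 159 and 183 CPM after anti-PD-1, without overlap (log2 1.34 ± 0.24; adjusted p = 0.0705 by edgeR and 7.69e-05 by DESeq2). Irf7 was at 130.5, 210.1, 204 and 201 against 219.6, 334, 263 and 373 CPM, while Oas3 was at 20.7, 14.1, 14.1 and 21.6 against 16.3, 159.8, 76.8 and 25.2 CPM, high in anti-PD-1 libraries 2 and 3. Without anti-PD-1 libraries 1 and 4 the list's median was 0.24. Genes that load MHC class I had a median of 0.17 over 20 genes; Pdia3 had a log2 fold change of 0.59 ± 0.15, Tapbp one of 1.18 ± 0.39, Tap1 one of 1.16 ± 0.40, and the interferon gamma target Gbp7 one of 0.99 ± 0.28. In the survival list (median -0.18) Xiap, an inhibitor of caspases, was at 86.7, 88, 98.1 and 80.6 against 54.7, 44.3, 50.9 and 45.8 CPM and the death effector gene Bax at 43.4, 45.8, 26.5 and 37.4 against 52, 72.2, 88.8 and 73.3 CPM, both without overlap.

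Transcripts of macrophages were present and differed widely between libraries. Of 25 macrophage and monocyte markers 20 had a higher mean after anti-PD-1, and their summed level was 2884 to 3895 CPM in isotype and 2609 to 5614 CPM in anti-PD-1 libraries (difference of means 667 CPM, exact two-sided permutation p = 0.457). Cd74, Ctss and Ctsb were the most abundant of them after isotype. Their mean TPM was 1442, 1096 and 493 there and 1208, 1048 and 614 after anti-PD-1, beside 18.9 and 778 for Lyz2. The sum therefore follows abundant members and says little about sparse ones. Lyz2, lysozyme of myeloid cells, was at 6.33, 14, 0 and 21.7 CPM after isotype and 678, 118, 2.09 and 893 CPM after anti-PD-1, highest in libraries 1 and 4. Csf1r had no count in any isotype library and 6.59, 0.405, 0 and 14.6 CPM after anti-PD-1, and Itgam was at 0, 0, 0 and 0.0688 against 11.2, 1.05, 0 and 3.54 CPM. Mrc1 and Chil3 were also at 0 in every isotype library. Other markers of the list were present after isotype. In mean TPM, C1qb was at 28.1 after isotype and 61.2 after anti-PD-1, and Cd68 at 43.8 and 85. C1qc was at 9.79 and 9.64, and Cd14 at 6.68 and 5.61. Without anti-PD-1 libraries 1 and 4 the median of the tested markers turned from 1.36 to -0.53 (0.79 without library 4 alone and 2.38 without isotype library 2), while the mitosis median was 1.18 and the FOXO median -0.92. Spp1, which encodes osteopontin and is made by macrophages and by some T cells, was at 53.8, 65.3, 38.5 and 102 against 502, 77, 371 and 227 CPM. Anti-PD-1 library 3 held 371 CPM of Spp1 and 2.09 CPM of Lyz2. Jaml, itself expressed by myeloid cells as well as by lymphocytes, was at 0, 0, 0 and 0.825 CPM after isotype and 1.65, 3.89, 2.35 and 3.36 CPM after anti-PD-1 (log2 3.74 ± 2.05; adjusted p = 0.464 by edgeR). The part of macrophage transcripts in these values was not tested. In sorted pools, more cells of a type and more RNA per cell cannot be told apart. Of 12 NK cell markers 4, Ncr1 among them, were at 0 in all 8 libraries. The 4 that could be tested, of which macrophages also express Fcer1g and Tyrobp, all had positive values, with a median of 1.69 and Gzma called by DESeq2. The summed NK cell markers were at 8.98 to 104 CPM after isotype and at 272, 50.3, 10.4 and 243 CPM in anti-PD-1 libraries 1 to 4, highest in the libraries that were also highest in Lyz2. Ms4a1 and Pax5 of B cells were at 0 in all 8 libraries, though Ighm was at 689, 1154, 803 and 657 CPM after isotype and 534, 537, 575 and 493 CPM after anti-PD-1, without overlap (DESeq2 adjusted p = 0.0324), and Igkc at 31.9, 29.8, 53.2 and 22.8 against 19.9, 18.9, 14.7 and 14.6 CPM.

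**Figure D4:**
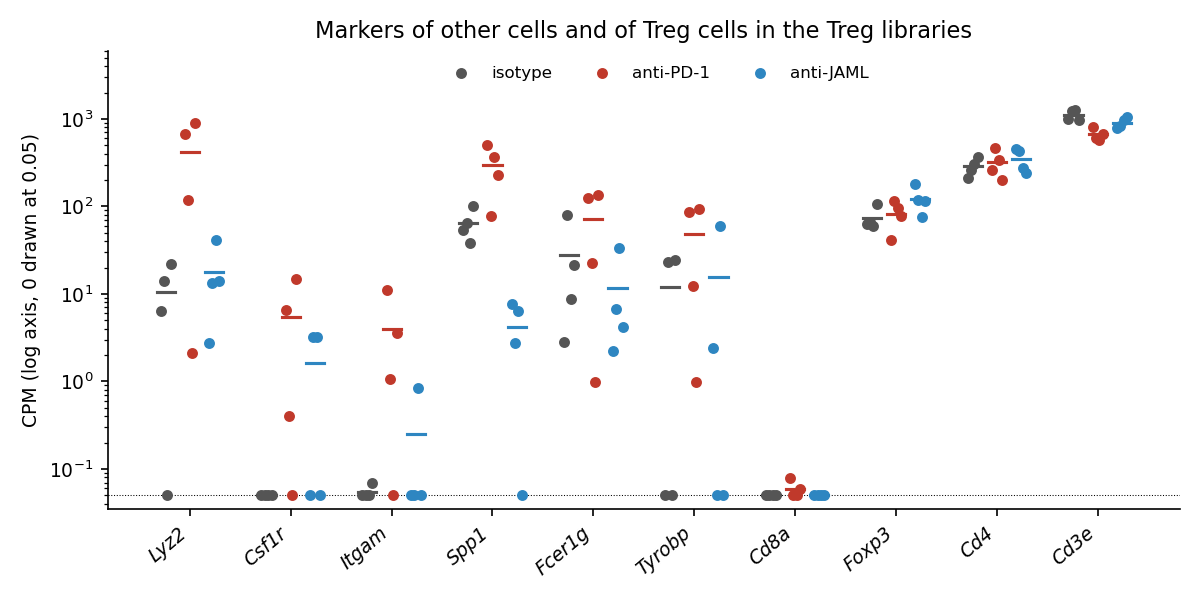
CPM on a log axis of 6 myeloid markers, Cd8a and 3 genes of the sorted cells in each Treg library (dots; values of 0 drawn at 0.05) with group means (bars). Lyz2 is at 678 and 893 CPM in anti-PD-1 libraries 1 and 4, Cd8a is at or near 0 in all libraries, and Foxp3 and Cd4 overlap between the groups.

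The anti-PD-1 contrast was then compared with the same contrast in CD8+ T cells, in a fit of all 24 libraries with an interaction term. Of 14591 genes tested none passed an adjusted p of 0.05 in edgeR (0% called). At an unadjusted p under 0.05, 597 were more positive in Treg cells (4.09%) and 315 more negative (2.16%); DESeq2 called 201 and limma voom 1. Kif2c had the smallest p, with a log2 fold change of 3.01 ± 0.36 in Treg cells and 0.27 ± 0.33 in CD8 cells, a difference of 2.74 ± 0.48 (edgeR adjusted p = 0.0764). For Nup107 the values were 2.01 ± 0.21 and 0.48 ± 0.20, a difference of 1.52 ± 0.29 (adjusted p = 0.111 by edgeR). Ttl stood between them by p, but its level of 0 in isotype Treg cells leaves its fitted difference without meaning as a size. Ypel3 was negative in both, at -2.07 ± 0.28 and -0.90 ± 0.27, and the difference of -1.17 ± 0.38 had an edgeR adjusted p of 0.57. Tpx2, Wdr43 and Ncl had Treg minus CD8 differences of 1.54 ± 0.36, 1.08 ± 0.28 and 0.95 ± 0.28, and Igfbp7 and Rgs1 of -2.25 ± 0.69 and -0.91 ± 0.45, none past the threshold.

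**Figure D5:**
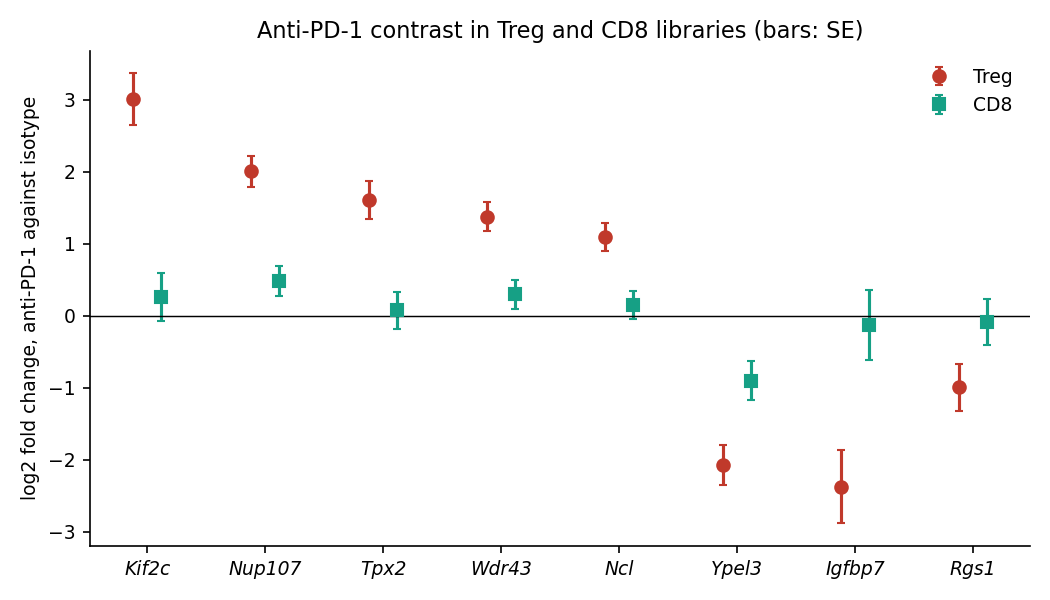
Log2 fold change of anti-PD-1 against isotype with its SE in Treg (circles) and CD8 (squares) libraries for 8 genes, from the fit of all 24 libraries. Kif2c is at 3.01 in Treg and 0.27 in CD8 cells, and Ypel3 is below 0 in both.

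Against the anti-JAML Treg libraries, which share the fit, no gene passed edgeR's adjusted threshold (0% of 12981 genes); 364 were higher (2.8%) and 378 lower (2.91%) after anti-PD-1 at an unadjusted p under 0.05, DESeq2 called 70 and limma voom none. Ypel3 was among the genes with the smallest p, with a log2 difference of anti-PD-1 against anti-JAML of -1.57 ± 0.24 (adjusted p = 0.122, edgeR). That of Bst2 was 1.66 ± 0.24 and that of Spp1 6.13 ± 0.97, each with the same adjusted p. Nup107 differed by 1.06 ± 0.25 (adjusted p = 0.472, edgeR) and Kif2c by 0.81 ± 0.38 (0.9), and the anti-JAML libraries also lay above the isotype ones in both genes.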

How the data were processed

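RNA was measured by Smart-seq2 in 24 libraries, grouped by the antibody and cell label of their titles. The authors deposited counts (whole reads per gene, not normalized) and TPM, per the file headers; TPM served only to set levels per length side by side. The build mm10 and the tools STAR 2.7.3a, fastp 0.20.1, deepTools 3.3.1 and SAMtools appear, with no role, per the submitters' processing notes. How reads were counted, with which strand setting and annotation, is not given in the sources used here: overlapping and near-identical genes are therefore uncertain. Of 54957 gene rows 98.6% matched GENCODE M21 by versioned ID, from which positions were taken, and all 3 promoters matched RefSeq by symbol.

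Counts were tested in R 4.3.3 with edgeR 4.0.16 (TMM, filterByExpr with a minimum count of 10 and total of 15, robust quasi-likelihood F test, two-sided). All 12 Treg libraries entered the fit of the antibody comparisons, so that they share 1 estimate of the spread, and all 24 the Treg minus CD8 test. The Benjamini-Hochberg adjustment ran over every gene tested, and calls needed an adjusted p under 0.05. CPM are on the TMM scale. DESeq2 1.42.0, limma voom 3.58.1, RLE scaling, other filters, a covariate for genes detected per library, the replicate number as a block and the omission of libraries were alternatives; omitting each anti-JAML library, or anti-PD-1 1 and 4 with isotype 3, was added after the data were seen. The test was tried on simulated counts first. Reads were amplified and carry no molecular identifiers, so the floor of 3 counts covers counting error only.

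The comparison, gene lists and families were chosen with earlier results of these data known. Genes named were Pdcd1, Cd274, Jaml, Foxp3, Il2ra, Ctla4, Cd4, Cd8a and Lyz2, the genes called or, below 5 in a direction, the 5 with the smallest p, up to 4 top-ranked members per list by p, and the 3 with the smallest p in the Treg minus CD8 test, without pseudogenes and genes that have predicted or clone names. Others that the rule chose were left out for length or are not reported here, and genes added after their values were seen are marked as such.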

Additional observations from a re-analysis of the deposited data

Results flagged for a closer look

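In 18 of 232 groups of 4 values, 1 library lay far from the other 3, where chance would give about 1 in 20. Isotype library 4 stood apart by its Foxp3 level of 106 CPM, its Pkm level of 1788 CPM, and 14286 genes detected after thinning to the shallowest library; it was also the 1 isotype library with Jaml (0.825 CPM), Itgam (0.0688 CPM) and Gzma (1.93 CPM). Isotype library 2 was high in Il7r at 265 CPM, and isotype library 1 low in Irf7 at 130.5 CPM. A summed erythroid and platelet marker level of 6.51 CPM stood out in 1 isotype library.

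After anti-PD-1, library 1 stood apart with 44.7 CPM of Gzma and 3.38% of counts in mitochondrially encoded genes, and also with summed melanoma markers of 98.4 CPM and summed erythroid and platelet markers of 716 CPM. Library 2 was high in Mcm4 at 416 CPM and low in Il7r at 45.3 CPM and in Cdca8 at 161 CPM. Library 4 held the highest Ypel3 level of its group, 198 CPM, which was still below every isotype library, and the lowest Tigit level, 1158 CPM.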

How the results depend on the processing

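For anti-PD-1 against isotype in Treg cells, RLE scaling and a filter of CPM above 5 in 4 libraries gave the same 3 calls. DESeq2 called 399 genes higher and 224 lower, limma voom 3 and 3, and the fit without a low-count filter 2 and 2. With a covariate for genes detected, with only the 8 libraries compared, or without anti-PD-1 1 and 4 and isotype 3, 0 genes were called higher and 0 lower; without anti-PD-1 1 and 4 the counts were 9 and 3. Leaving out 1 library in turn gave 0 to 81 genes higher and 0 to 41 lower. In the Treg minus CD8 test, DESeq2 called 201 genes, limma voom 1, the fit of the 16 libraries compared 4, the fit without anti-PD-1 1 and 4 called 2, and leaving out 1 library 0 to 12. Against anti-JAML, DESeq2 called 70 and leaving out 1 library 0 to 1. The cause was not tested for these differences.

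Same-numbered isotype and anti-PD-1 libraries did not deviate together (r of -0.05 to 0.08), and 1 of 4 correlated best with its own number, so the numbers were not taken as pairs. With the replicate block, 0 genes were called higher and 0 lower, and all 3 genes lost their call.

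Some small log2 fold changes turned sign. With a covariate for genes detected they were -0.20 for Pdcd1, -0.55 for Foxp3, 0.047 for Ctla4 and -0.36 for Cd4. Without anti-PD-1 1 and 4, Ctla4 was at 0.00253. Leaving out 1 library in turn gave -0.015 to 0.42 for Foxp3, -0.27 to 0.063 for Ctla4 and -0.099 to 0.31 for Cd4. The summed macrophage markers differed by -669.7 CPM without anti-PD-1 1 and 4. Of 2126 gene values under the alternatives 1973 kept their direction and side of the threshold, 28 fell short of it, 117 passed it and 8 turned. Only Kif2c, Nup107 and Ypel3 had a call to lose, so all 28 belong to them. Most values that kept their side were genes without a call, so these counts do not measure how stable the calls were. Lists are described by counts and medians alone, and fewer than 400 cells per library limit what sparse genes such as Jaml can show.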

Other observations

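Further lists of signalling and localization genes had medians of both signs, beside 0.04 for all genes. The 13 MAPK feedback genes tested had a median of 0.39 (log2 fold change), with 8 positive values, 1 higher and 2 lower at an unadjusted p under 0.05. Among all genes 8.34% were higher and 5.8% lower at that p. The 24 early T-cell receptor response genes had a median of 0.10, the 20 NF-kB genes 0.03, the 18 genes of interleukin-2 and STAT5 signalling 0.16 and the 25 interferon gamma targets 0.12. The 13 tissue residency genes tested had a median of -0.38, the 16 inhibitory receptor genes -0.25, the 25 trafficking receptors -0.20, and the 16 genes of TNF receptors and costimulators -0.16, with 4 of these lower at that p. The 17 sterol and lipid genes tested had a median of 0.64, with 5 higher and 2 lower at that p, and the 14 helper cytokine and factor genes tested 0.26.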
